A study of Mus musculus with 21 samples.

Results

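Transfer RNAs were compared between Polr3a mutant and wildtype cerebellum, the hindbrain structure that coordinates movement. The comparison used 11 of the 21 libraries of the series, 5 from mutants and 6 from wildtype mice, picked by their labelled tissue and genotype. It covered all 208 tRNA entries of the cerebellum count table, 186 nuclear and 22 mitochondrial. All mice were C57BL/6J, ate freely and received tamoxifen, the wildtype controls included. Recombination was induced at postnatal day 28 and the tissue was flash frozen at postnatal day 42. The mutants were 2 males and 3 females, and the wildtype mice were 4 males and 2 females. Libraries were made by QuantM-tRNA-seq, a method that sequences mature tRNAs after adaptor ligation. The sources used here do not name the allele, the Cre driver or the cells in which it acts. Polr3a messenger RNA and cell type markers are not measured in a tRNA library, so neither the mutation nor the tissue could be checked. The labels do not tie each library to an animal of its own, so a p-value here speaks only of how much these libraries vary.

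RNA polymerase III makes nuclear tRNAs and other short non-coding RNAs, and Polr3a codes for its largest subunit. Many anticodons are served by several tRNAs that differ in the body of the molecule; these are called isodecoders. Mitochondrial tRNAs are cut from long transcripts of both strands of the mitochondrial genome, which a different polymerase makes, so they are a set that RNA polymerase III does not transcribe. In people, inherited POLR3A mutations are a known cause of a leukodystrophy, a disorder of myelin in which cerebellar signs are common.

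The 4 mitochondrial tRNAs with the lowest p-values are shown here, because all mitochondrial tRNAs had values on the same side of 0 and nuclear tRNA sequences were not used here. Each sequence is written 5′ to 3′ with the anticodon in capitals. The sequences are GENCODE M21 transcript sequences, and the mm10 coordinates are from the GENCODE M21 annotation. mt-Tf, the phenylalanine tRNA, lies at chrM:1-68 on the plus strand. mt-Ty, the tyrosine tRNA, lies at chrM:5260-5326 on the minus strand. mt-Tw, the tryptophan tRNA, lies at chrM:4950-5016 on the plus strand. mt-Te, the glutamate tRNA, lies at chrM:14071-14139 on the minus strand.
mt-Tf: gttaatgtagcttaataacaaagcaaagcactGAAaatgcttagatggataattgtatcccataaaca
mt-Ty: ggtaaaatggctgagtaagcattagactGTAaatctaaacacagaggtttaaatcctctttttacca
mt-Tw: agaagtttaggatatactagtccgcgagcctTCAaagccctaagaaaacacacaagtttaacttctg
mt-Te: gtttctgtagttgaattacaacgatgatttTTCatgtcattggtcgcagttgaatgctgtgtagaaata

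Sequencing depth nearly followed genotype. Mutants 1 to 5 held 2146717, 4831721, 5361235, 5191657 and 7110313 tRNA counts, and wildtype libraries ranged from 1612754 to 5323340 with a median of 2171784. Only mutant 1 fell among the shallow libraries, together with 5 of the 6 wildtype libraries, and only wildtype 5 fell among the deep ones, together with mutants 2 to 5. Depth and genotype can therefore be compared only through 2 single libraries, and for most results they cannot be told apart. Differences inside the shallow and the deep class are given beside the main results, and they rest on mutant 1 alone and on wildtype 5 alone. The spike-in, an entry named for a tRNA of Escherichia coli, for which the sources used here state neither amount nor step of addition, was kept out of these totals.

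A larger part of the tRNA counts came from mitochondria in the mutants. The mitochondrial share was 21.2%, 15.0%, 13.96%, 16.4% and 19.3% in mutants 1 to 5, and it ran from 12.47% to 14.4% in wildtype with a median of 13.5%. Mutants 1, 2, 4 and 5 stood above every wildtype library, and mutant 3 lay inside the wildtype range. The difference of 3.74 percentage points (SE 1.37) had p = 0.00866 in a two-sided exact permutation test over 462 splits, and 0.0433 after Benjamini-Hochberg adjustment over the 5 library measures tested. The smallest p this design allows is 0.00433. Mutant 1 stood 7.83 points above the shallow wildtype libraries and the deep mutants averaged 2.36 points above wildtype 5, a within-class mean of 5.10 with an exact permutation p of 0.0667, the smallest that test can give.

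Nuclear tRNA counts per spike-in count were 81.4, 77.6, 112.9, 87.2 and 119.2 in mutants 1 to 5, against 90.2 to 214.0 in wildtype with a median of 143.8. Mutants 1, 2 and 4 lay below every wildtype library, while mutants 3 and 5 overlapped the wildtype range. On the log2 scale the difference was −0.57 (SE 0.21), with a two-sided exact permutation p of 0.026 that did not pass after adjustment over the 5 measures (adjusted p = 0.0649). For mitochondrial counts per spike-in count the log2 difference was −0.17 (SE 0.24), with an adjusted exact permutation p of 0.498. The spike-in itself made up 0.673% to 1.08% of counts in mutants and 0.401% to 0.940% in wildtype (adjusted exact permutation p = 0.0722). In bulk tissue, less tRNA per cell and fewer cells of a kind rich in tRNA cannot be told apart.

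**Figure D1:**
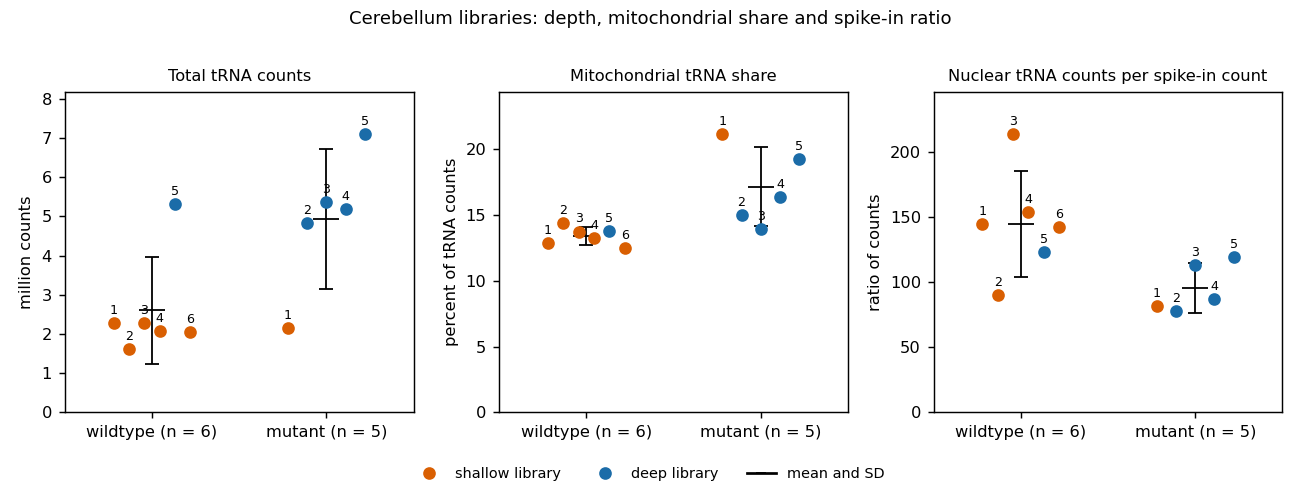
Each point is 1 cerebellum library, by genotype, with the mean and SD of each group. The panels give total tRNA counts, the mitochondrial share in percent and nuclear counts per spike-in count, and colour marks the shallow and deep classes. 4 of the 5 mutants have a mitochondrial share above every wildtype library, and 4 of the 5 mutants are deep.

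At the level of single tRNAs, 4 nuclear tRNAs fell and 1 rose in the mutants. Gly-CCC-2 and Gly-CCC-3-1, which read the GGG glycine codon, fell to 0.615 and 0.673 of the wildtype level, and Gly-GCC-1, which reads the GGC and GGU glycine codons, fell to 0.699. Ser-AGA-2 is a serine tRNA whose first anticodon base is normally converted to inosine, and it fell to 0.670. Ser-CGA-3-1, which reads the UCG serine codon, rose to 1.63 times wildtype. These 5 were 2.48% of the 202 tRNAs tested (edgeR quasi-likelihood test, adjusted p under 0.05), with 1.98% lower and 0.495% higher. At an unadjusted p under 0.05 there were 40 of 202, or 19.8%, with 22 higher (10.9%) and 18 lower (8.91%). Of these 40, 25 were nuclear and 15 mitochondrial, and the mitochondrial ones were all higher. The balance of directions also depends on scale and tool. DESeq2 called 23 of 202 (11.4%), with 13 higher, 7 of which were mitochondrial, and 10 lower. The scales set by mitochondrial tRNAs or the spike-in gave 30 (14.9%) to 83 (41.1%) lower calls and 0 higher. The 5 calls all carry the same sign in both depth classes, as did 127 of all 202, but with depth class as a covariate 0 of 202 (0%) passed in edgeR (38 at an unadjusted p under 0.05, lowest adjusted p 0.0682). Leaving out 1 library gave 2 calls without wildtype 1 or 6, 3 without mutant 1 or 2 or wildtype 4 or 5, 12 without mutant 3 and 33 without mutant 5.

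Levels are given as CPM, tRNA counts brought to a common library size with scaling by the trimmed mean of M-values (TMM), and log2 fold changes as mutant over wildtype with their standard errors. Gly-CCC-2 was at 244, 219, 229, 167 and 222 CPM in mutants 1 to 5, and in wildtype at 318 to 401 with a median of 346. No mutant reached the lowest wildtype library, and the log2 fold change was −0.70 ± 0.13 (edgeR adjusted p = 0.00901), with −0.52 in the shallow and −0.76 in the deep class. Gly-CCC-3-1 was at 214, 193, 311, 200.4 and 255 CPM, against 299.97 to 375 in wildtype with a median of 355. Mutant 3 alone overlapped the wildtype range, and the log2 fold change was −0.57 ± 0.14 (edgeR adjusted p = 0.0335).

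Gly-GCC-1 was at 1455, 1389.7, 1181, 1184 and 1201 CPM in mutants 1 to 5, and between 1556 and 2023 in wildtype, with a median of 1843. The groups did not overlap, and the log2 fold change was −0.52 ± 0.11 (edgeR adjusted p = 0.0149). All 3 glycine tRNAs are minor members of their anticodon families. The main Gly-CCC tRNA, Gly-CCC-1, ranged from 12949 to 16562 CPM in mutants and from 14833 to 17257 in wildtype, and its log2 fold change of −0.07 did not pass. The main Gly-GCC tRNA, Gly-GCC-4-1, ranged from 5600.4 to 6747 CPM in mutants and from 5817 to 7503 in wildtype, with a log2 fold change of −0.09 that did not pass. These main members, like the minor members named below for context, were picked after their values were seen.

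Ser-CGA-3-1 was at 243, 245, 275, 229.8 and 202 CPM in mutants 1 to 5, against 109.8 to 179.8 in wildtype with a median of 142. Every mutant lay above every wildtype library, and the log2 fold change was 0.71 ± 0.14 (edgeR adjusted p = 0.0145), with 0.73 in the shallow and 0.79 in the deep class. The other Ser-CGA tRNAs had log2 fold changes of −0.12 for Ser-CGA-1-1 and −0.08 for Ser-CGA-2-1, neither of which passed. Ser-AGA-2 was at 166, 174, 231, 183 and 141 CPM, against 236 to 309 in wildtype with a median of 267. The groups did not overlap, and the log2 fold change was −0.58 ± 0.14 (edgeR adjusted p = 0.0335). Gly-CCC-2 passed in 28 of 29 other settings, Gly-GCC-1 in 25, Ser-CGA-3-1 in 24, Gly-CCC-3-1 in 18 and Ser-AGA-2 in 16, and none of the 5 changed direction in any of them. The shallow and deep differences were −0.34 and −0.53 for Gly-GCC-1, −0.71 and −0.45 for Ser-AGA-2, and −0.68 and −0.67 for Gly-CCC-3-1. Ser-CGA-3-1 lost its call on every scale set by mitochondrial tRNAs or the spike-in, where its log2 fold change went as low as 0.13.

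**Figure D2:**
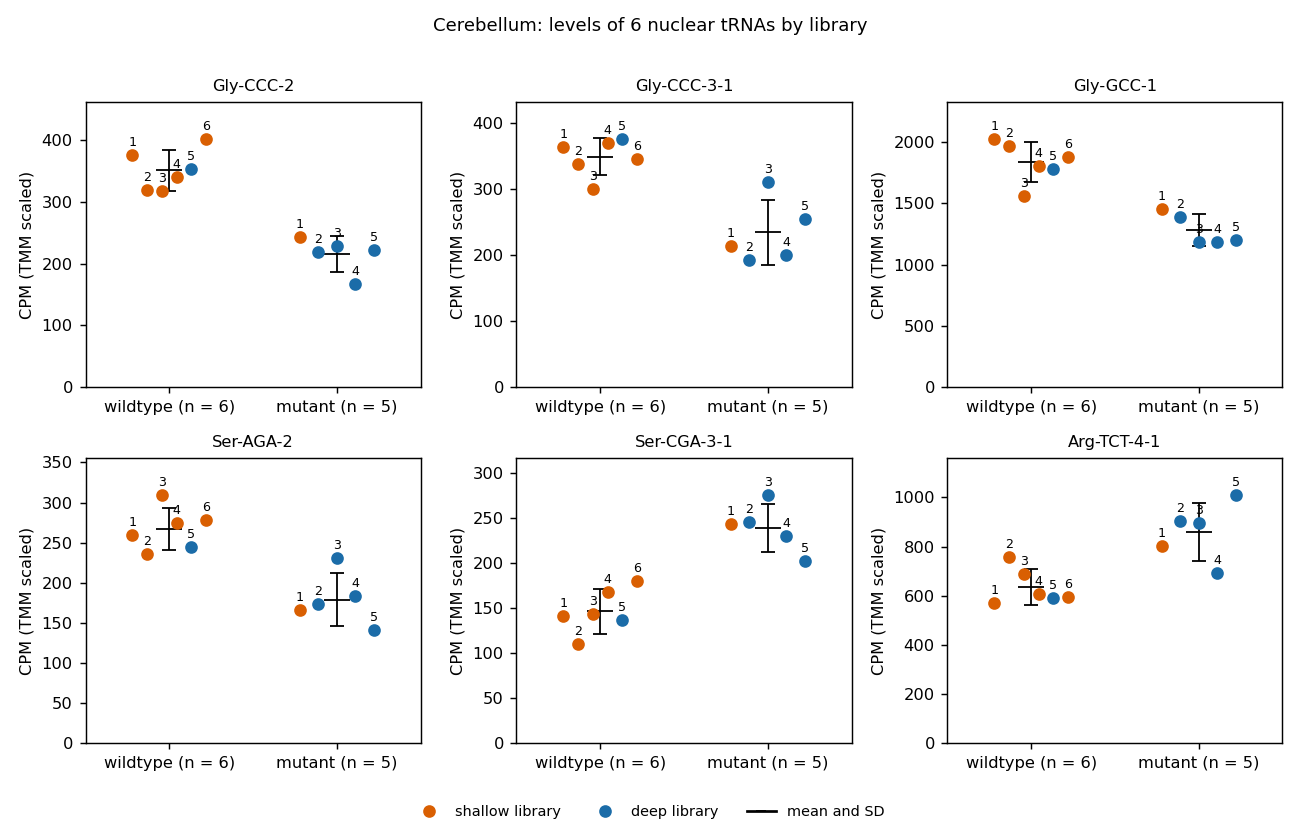
Each point is the level of 1 tRNA in 1 library, in CPM, for mutants and wildtype, with the mean and SD of each group. Gly-CCC-2, Gly-GCC-1 and Ser-AGA-2 lie wholly below wildtype and Ser-CGA-3-1 wholly above, while Gly-CCC-3-1 overlaps through mutant 3 and Arg-TCT-4-1 overlaps as well.

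CPM ranges of the groups did not overlap for 6 of 202 tRNAs, or 2.97%, with 4 lower in mutants (1.98%) and 2 higher (0.99%). Beside 4 of the called tRNAs these were Arg-CCT-1-1, which reads the AGG arginine codon, and Thr-AGT-4-1, a threonine tRNA. Arg-CCT-1-1 was at 1362, 1375, 1307, 1436 and 1292 CPM in mutants 1 to 5, against 1615 to 1791 in wildtype with a median of 1730.3, a log2 fold change of −0.34 ± 0.09 that missed the threshold (edgeR adjusted p = 0.0514). Thr-AGT-4-1 was at 3764, 3527, 3252, 3339 and 3242 CPM, against 2412 to 3226, with a log2 fold change of 0.31 ± 0.10 and an edgeR adjusted p of 0.100. Each group pair is separated, though the nearest Thr-AGT-4-1 libraries of the groups almost touch.

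Arg-TCT-4-1 is a tRNA enriched in the nervous system that reads the AGA arginine codon, and the C57BL/6J strain is known to carry a variant of its gene that lowers the mature tRNA. It was at 801, 903, 895, 692 and 1008 CPM in mutants 1 to 5, against 572 to 758 in wildtype with a median of 601. Mutants 1, 2, 3 and 5 stood above all wildtype libraries, mutant 4 overlapped, and the log2 fold change of 0.44 ± 0.12 missed the threshold (edgeR adjusted p = 0.0514). The other 4 Arg-TCT tRNAs had log2 fold changes below 0, with −0.31 for Arg-TCT-1-1, −0.17 for Arg-TCT-2-1, −0.21 for Arg-TCT-3-1 and −0.52 for Arg-TCT-5-1, and none passed. Of the remaining tRNAs with low p-values, Gln-CTG-3 had a log2 fold change of −0.68, Ala-AGC-1-1 −0.63, Thr-AGT-1 −0.61, Gln-TTG-2-1 −0.49 and Arg-ACG-2-1 −0.34, and none passed. On the higher side Ala-AGC-10-1 (1.02), Arg-CCG-2-1 (0.34) and Thr-CGT-3-1 (0.31) did not pass either. Ala-AGC-10-1 and Thr-AGT-3-1, whose log2 fold change was −1.07, are rare tRNAs, at most 22.05 and 11.8 CPM in any library.

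Grouped by amino acid, all 8 tested glutamine tRNAs had log2 fold changes below 0, with a median of −0.35, while the median over all 202 tRNAs was −0.03 and 112 of the 180 tested nuclear tRNAs were below 0. These signs are relative to the scale, since the median of all 202 was −0.33 with the authors' size factors, −0.37 with the mitochondrial total and −0.59 with the spike-in count. For arginine 16 of 19 were below 0 (median −0.18), for alanine 13 of 20 (median −0.17), for lysine 9 of 10 (median −0.09) and for serine 12 of 14 (median −0.10), and of these only Ser-AGA-2 fell and Ser-CGA-3-1 rose. For glycine 8 of 9 were below 0 (median −0.11) and 3 fell, beside 2.48% called over all 202. All 5 isoleucine tRNAs (median 0.08) and all 5 proline tRNAs (median 0.13) were above 0, as were 11 of 17 leucine tRNAs (median 0.05), and none passed. Threonine tRNAs split evenly, 7 above and 7 below 0.

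The initiator methionine tRNAs, which start every protein, had a median log2 fold change of −0.15 over 3 entries, and the selenocysteine tRNA, SeC-TCA-1-1, which reads UGA in selenoprotein messages, had −0.26. None of these passed. The selenocysteine tRNA was at 1417, 1347, 1244 and 1349 CPM in mutants 1 to 4 and at 2140.0 in mutant 5, against 1389.7 to 2121 in wildtype with a median of 1844. Mutant 5 was thus the highest of all 11 libraries, and the rest of the mutants stayed near or under the lowest wildtype library. iMet-CAT-1 was also highest in mutant 5 among the mutants, though there inside the wildtype range, with 12766, 12370.0, 11337 and 13377 CPM in mutants 1 to 4, 21877 in mutant 5 and a wildtype range of 13158 to 25432. Families whose genes carry introns (Tyr-GTA, Leu-CAA, Arg-TCT and Ile-TAT) had a median of 0.03 over 16 tRNAs, and none passed. The median was −0.06 over the 34 tRNAs whose anticodon starts with A, of which 1 fell, and −0.05 over the 31 serine and leucine tRNAs, which have a long variable arm and of which 1 rose and 1 fell. With nuclear tRNAs split into 3 classes of 60 by abundance, the rarest had a median of −0.08 and the most abundant −0.02, and none of either passed.

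Of the most abundant tRNAs, none passed. Asn-GTT-3, Lys-TTT-1, Gln-CTG-2, Asp-GTC-1 and Glu-CTC-1 led the pool, with mean levels of 69368, 67262, 51314, 51034 and 36628 CPM. Their log2 fold changes were −0.02, −0.08, −0.04, −0.03 and −0.22. Those of the next nuclear tRNAs were as small, with Ala-AGC-4 (−0.05), Phe-GAA-1 (−0.06), Ser-TGA-1-1 (−0.15) and Met-CAT-1 (−0.02). A p above the threshold does not show that these levels were equal.

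On the TMM scale all 22 mitochondrial tRNAs had log2 fold changes above 0, from 0.01 for Leu2-TAG-MT to 0.53 for Tyr-GTA-MT, with a median of 0.34 against −0.06 over nuclear tRNAs. With the spike-in count, a reference outside the mitochondrial set, their median was −0.20. It was 0.00 with the authors' size factors and −0.04 with the mitochondrial total. Those scales are themselves set by the mitochondrial tRNAs, so a median near 0 is built in. It cannot show whether the mitochondrial tRNAs rose. None passed in edgeR, although 15 of the 22 had an unadjusted p under 0.05, as did 40 of all 202 tRNAs (19.8%). DESeq2 called 7 of the 22, all higher, and 23 of all 202 (11.4%). With limma-voom 1 of the 22 was called, higher, and 9 of all 202 (4.46%). The 14 tRNAs of the plus strand had a median of 0.34 and the 8 of the minus strand a median of 0.37. These 22 values are not independent of the mitochondrial share given above, since all are parts of the same total.

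Phe-GAA-MT was the most abundant mitochondrial tRNA, with 13.2% to 18.9% of mitochondrial counts per library. It was at 36966, 27757, 22348, 26248 and 28272 CPM in mutants 1 to 5, against 16556 to 25639 in wildtype with a median of 19369.5, and mutant 3 alone overlapped (0.52 ± 0.14, edgeR adjusted p = 0.0514). Tyr-GTA-MT was at 14875, 11201, 7697, 12419 and 15036 CPM, against 7496 to 9695 in wildtype, again with mutant 3 alone inside the wildtype range (0.53 ± 0.15, edgeR adjusted p = 0.0570). Trp-TCA-MT was at 23175, 18333, 11886, 16336 and 24300 CPM, against 11413 to 16720 in wildtype, and mutants 3 and 4 overlapped. Glu-TTC-MT was at 6914, 4325, 4604, 5493 and 4189 CPM, against 3468 to 4242 in wildtype, and mutant 5 overlapped. Mutant 1, the library with the highest mitochondrial share, was the highest or second highest for all 4. Within the shallow class all 22 were higher in mutant 1 than in the mean of wildtype (median 0.68), and within the deep class 17 of 22 were higher than in wildtype 5 (median 0.16).

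Isodecoder shares, the percent of an anticodon's counts that each of its tRNAs holds, do not depend on how libraries are scaled. 15 of 174 shares changed, or 8.62%, 8 upward (4.6%) and 7 downward (4.02%), in an edgeR quasi-likelihood test with the anticodon total as offset and Benjamini-Hochberg adjustment over the 174. Shares of 1 anticodon sum to 100%, so its members cannot move independently. The upward changes were in serine (Ser-CGA-3-1 and Ser-AGA-3-1), arginine (Arg-CCG-2-1, Arg-TCT-4-1 and Arg-TCG-3), glycine (Gly-GCC-4-1), leucine (Leu-CAA-1-1) and threonine (Thr-AGT-4-1). The downward ones were in glycine (Gly-GCC-1 and Gly-CCC-2), threonine (Thr-AGT-1 and Thr-TGT-2-1), arginine (Arg-TCT-5-1), glutamine (Gln-CTG-3) and alanine (Ala-AGC-2). Ranges did not overlap for 11 of the 174 shares, or 6.32%, with 6 higher in mutants (3.45%) and 5 lower (2.87%).

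Ser-CGA-3-1 held 2.22%, 1.74%, 1.85%, 1.99% and 1.83% of Ser-CGA counts in mutants 1 to 5, against 0.813% to 1.395% in wildtype with a median of 1.08%. The groups did not overlap, the log2 ratio was 0.78 ± 0.13 (edgeR adjusted p = 0.00776), and it was the 1 share of the 15 that passed in all 18 other settings, depth class as a covariate included (edgeR adjusted p = 0.0484). Arg-TCT-4-1 held 11.9%, 15.8%, 14.7%, 11.9% and 11.5% of Arg-TCT counts, against 6.99% to 10.3% in wildtype with a median of 8.22%. Every mutant lay above every wildtype library (0.64 ± 0.11, edgeR adjusted p = 0.00776), and this call held in 17 of 18 other settings, the exception being depth class. Within the same anticodon Arg-TCT-5-1 fell from a wildtype median of 3.72% to between 2.66% and 3.46% in mutants (−0.33 ± 0.08, edgeR adjusted p = 0.0432). Its ranges overlapped, since mutant 1 lay above the lowest wildtype library at 3.43%, and the call held in 5 of 18 other settings.

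Arg-CCG-2-1, one of 3 tRNAs for the CGG arginine codon, held 23.1%, 26.3%, 27.0%, 21.8% and 25.3% of its anticodon in mutants 1 to 5, against 17.8% to 20.4% in wildtype with a median of 19.8%. The groups did not overlap (0.35 ± 0.06, edgeR adjusted p = 0.00776). Gly-GCC-1 held 15.7%, 17.6%, 15.6%, 13.6% and 15.0%, against 17.6% to 21.05% in wildtype with a median of 20.4%, and Gly-GCC-4-1 held 70.8% to 75.0% in mutants and 68.1% to 70.6% in wildtype. Gly-CCC-2 held 1.46%, 1.46%, 1.55%, 0.985% and 1.66%, against 1.78% to 2.45% in wildtype with a median of 2.18%. For Gly-GCC-1 and Gly-CCC-2 the mutants were below every wildtype library, although for Gly-GCC-1 mutant 2 and the lowest wildtype library are equal as rounded (log2 ratios −0.35 and −0.60). Thr-AGT-1, at under 1% of its anticodon, overlapped through mutant 2 (−0.72), and Thr-TGT-2-1 did not overlap (−0.56). With depth class as a covariate 1 of 174 shares (0.575%, higher) passed in edgeR and 32 had an unadjusted p under 0.05. Leaving out 1 library gave 3 calls without wildtype 1, 4 or 5, 6 without wildtype 6, 7 without mutant 1, 2 or 4, 9 without wildtype 3 and 40 without mutant 5.

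**Figure D3:**
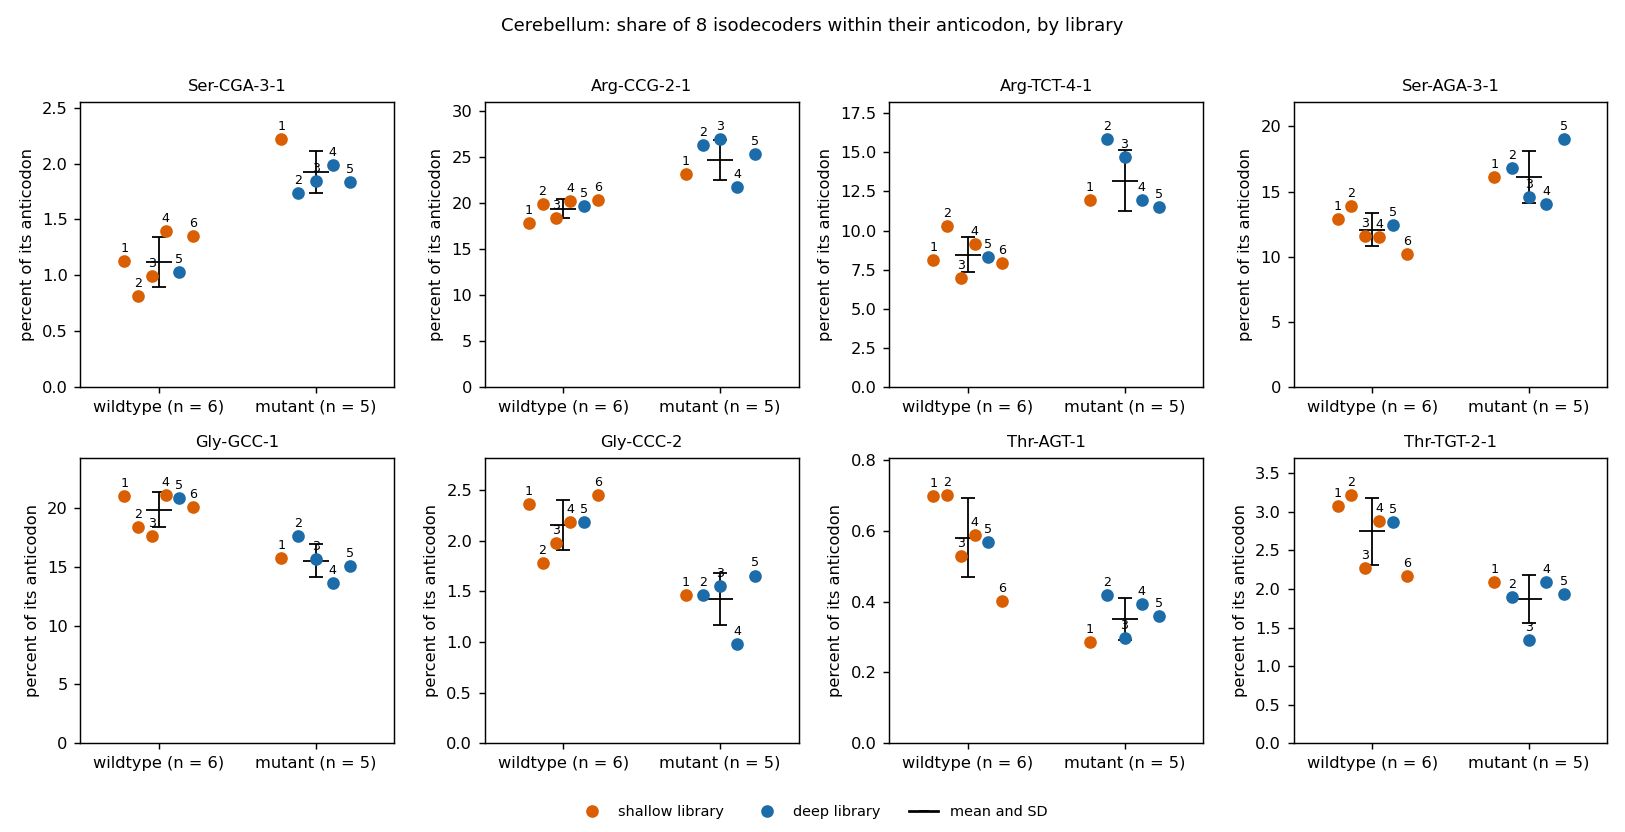
Each point is the percent of an anticodon's counts held by 1 tRNA in 1 library, for mutants and wildtype, with the mean and SD of each group. Ser-CGA-3-1, Arg-CCG-2-1, Arg-TCT-4-1 and Ser-AGA-3-1 lie wholly above wildtype and Gly-GCC-1, Gly-CCC-2 and Thr-TGT-2-1 wholly below, while Thr-AGT-1 overlaps.

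Summed over isodecoders, no anticodon passed in edgeR (0 of 71, 0%). The 71 are 49 nuclear anticodons and the 22 mitochondrial tRNAs, each counted as 1 anticodon. At an unadjusted p under 0.05 there were 15. The only nuclear ones were Ser-AGA and Glu-CTC, both lower, and the mitochondrial ones were all higher. DESeq2 called 11 (15.5%), with 10 higher (14.1%) and 1 lower (1.41%), and limma-voom 0. Without mutant 5 edgeR called 3 (4.23%), all higher, namely Phe-GAA-MT, Glu-TTC-MT and the nuclear Ile-AAT. Without mutant 3 it called 5, with Ser-AGA lower and Phe-GAA-MT, Tyr-GTA-MT, Trp-TCA-MT and Ser1-TGA-MT higher. Without wildtype 2 it called 1. Ser-AGA had a log2 fold change of −0.49 ± 0.13 (edgeR adjusted p = 0.0724), at 208, 222, 279.8, 222 and 181 CPM in mutants 1 to 5 against 286 to 356 in wildtype, with no overlap. Gly-CCC, Gly-GCC and Ser-CGA, the anticodons of tRNAs called above, had log2 fold changes of −0.09, −0.16 and −0.07 that did not pass. Arg-TCT, where only isodecoder shares had passed, had −0.20 and did not pass either. The difference between a single tRNA that passed and its anticodon that did not was not itself tested, beyond the shares.

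By amino acid, none of 23 shares of the nuclear pool passed in two-sided exact permutation tests (lowest adjusted p 0.448), and 2 had an unadjusted p under 0.05. Threonine tRNAs held 3.09% to 3.68% of nuclear counts in mutants and 2.72% to 3.35% in wildtype (exact permutation p = 0.0346), and tyrosine tRNAs 1.82% to 2.39% and 1.74% to 1.96% (exact permutation p = 0.0390). The mutants were more scattered than the wildtype libraries, with a larger SD for 19 of 23 shares. Without mutant 5 the SD was larger in mutants for 10 of 23.

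Mutant 5 departed from the other mutants. Its lysine share was 15.7%, against 7.19% to 10.7% in mutants 1 to 4 and 10.5% to 11.3% in wildtype. Its isoleucine share was 2.004%, against 4.11% to 4.69% and 2.95% to 3.90%, and its tryptophan share 0.930%, against 1.96% to 2.31% and 1.51% to 2.15%. For isoleucine the other mutants stood above every wildtype library while mutant 5 stood below, and for lysine mutant 5 stood above while mutants 2 to 4 stood below. Mutant 5 was outside the wildtype range for 15 of 23 shares, and mutants 1 to 4 for 7, 11, 12 and 10. The first principal component of log2 levels, with 29.1% of the variance, ran from mutant 3 (−4.13) to mutant 5 (5.81), with every wildtype library between them. Mutant 5 was also the deepest library.

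**Figure D4:**
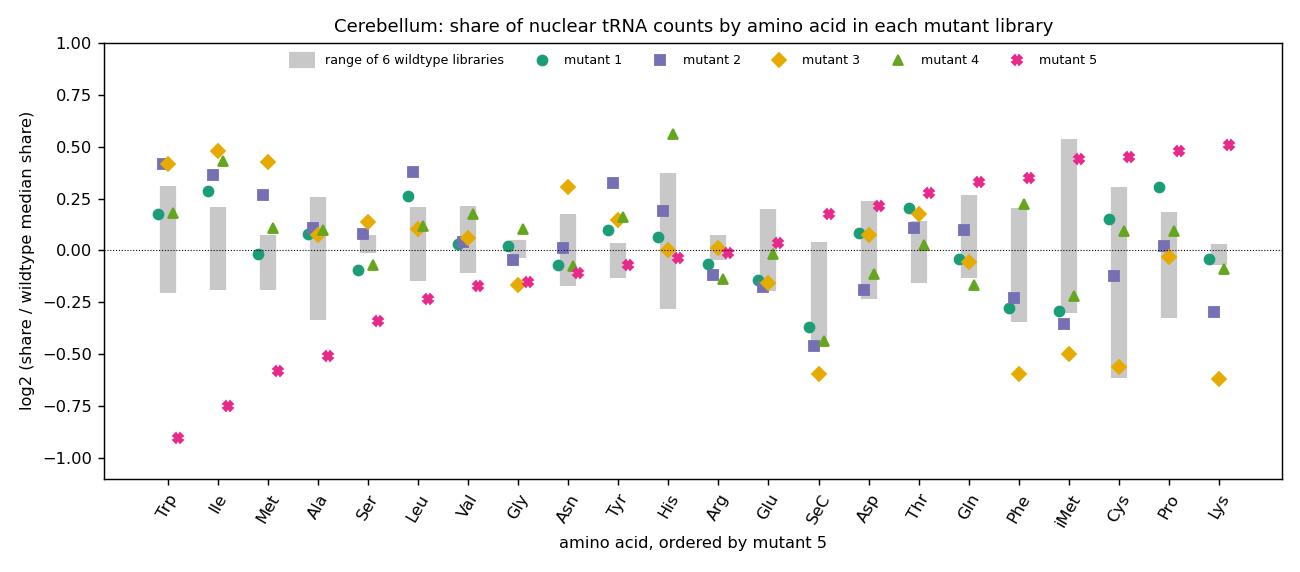
Points give each mutant library's share of nuclear counts per amino acid, as log2 of the share over the wildtype median, and grey bars give the wildtype range. Mutant 5 lies far above wildtype for lysine and far below it for isoleucine and tryptophan, where mutants 1 to 4 lie within or on the other side of the range.

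Without mutant 5, 33 of 204 tRNAs passed (16.2%), 15 higher (7.35%) and 18 lower (8.82%), and the 5 tRNAs called with all libraries were among them. In 18 of the 28 additional ones mutants 1 to 4 all lay outside the wildtype range, and in 12 mutant 5 lay beyond that range on the opposite side. These 28 were picked for passing only without mutant 5. That choice itself favours such positions, so the 2 counts describe the choice and are no separate result. 2 examples, chosen after their values were seen, are Ile-AAT-1 and Lys-TTT-2. Ile-AAT-1, the main isoleucine tRNA, was at 23012, 22996, 24939 and 23655 CPM in mutants 1 to 4 and 9949 in mutant 5, against 16414 to 20579.8 in wildtype with a median of 18171. Its log2 fold change was 0.20 with all libraries and 0.40 without mutant 5. Lys-TTT-2 was at 1790, 1535, 1520 and 1659 CPM in mutants 1 to 4 and 3595 in mutant 5, against 2048 to 2762 in wildtype, with log2 fold changes of −0.21 and −0.50. Isodecoder shares followed the same course, with 40 of 174 passing without mutant 5 (23%), 16 higher (9.2%) and 24 lower (13.8%), with all 15 named above among them.

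The authors' own comparison used another scale. The size factors behind the authors' deposited table, recovered from its mean values, equal a median of ratios over the 22 mitochondrial tRNAs and the spike-in to within 1.41e-07%. A rise of mitochondrial tRNAs and a fall of nuclear tRNAs both lower the nuclear values on that scale, where they cannot be told apart. The authors' deposited table calls 51 of 208 tRNAs lower (24.5%) and 0 higher, 50 of them nuclear, and its median log2 fold change is −0.35 over nuclear and 0.00 over mitochondrial tRNAs. By amino acid it calls 7 of 9 glutamine, 7 of 10 glycine, 12 of 19 arginine and 7 of 20 alanine tRNAs, but 0 of 17 leucine, 0 of 13 cysteine and 0 of 5 isoleucine tRNAs. In the authors' deposited table Gly-CCC-2 has a log2 fold change of −1.01, Gly-CCC-3-1 −0.87, Ser-AGA-2 −0.85 and Gly-GCC-1 −0.83, all called, and Ser-CGA-3-1 has 0.42 and is not called. At the anticodon level the authors' deposited table calls 13 of 71 lower (18.3%) and 0 higher.

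The edgeR test run on those size factors called 32 of 202 tRNAs (15.8%), all lower and all among the authors' 51. Of the 5 tRNAs called above, 4 were in both sets and Ser-CGA-3-1 was not. The recovered factors ranged from 0.475 in wildtype 2 to 3.04 in mutant 5. On these factors 10 of 71 anticodons passed (14.1%), all lower.

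**Figure D5:**
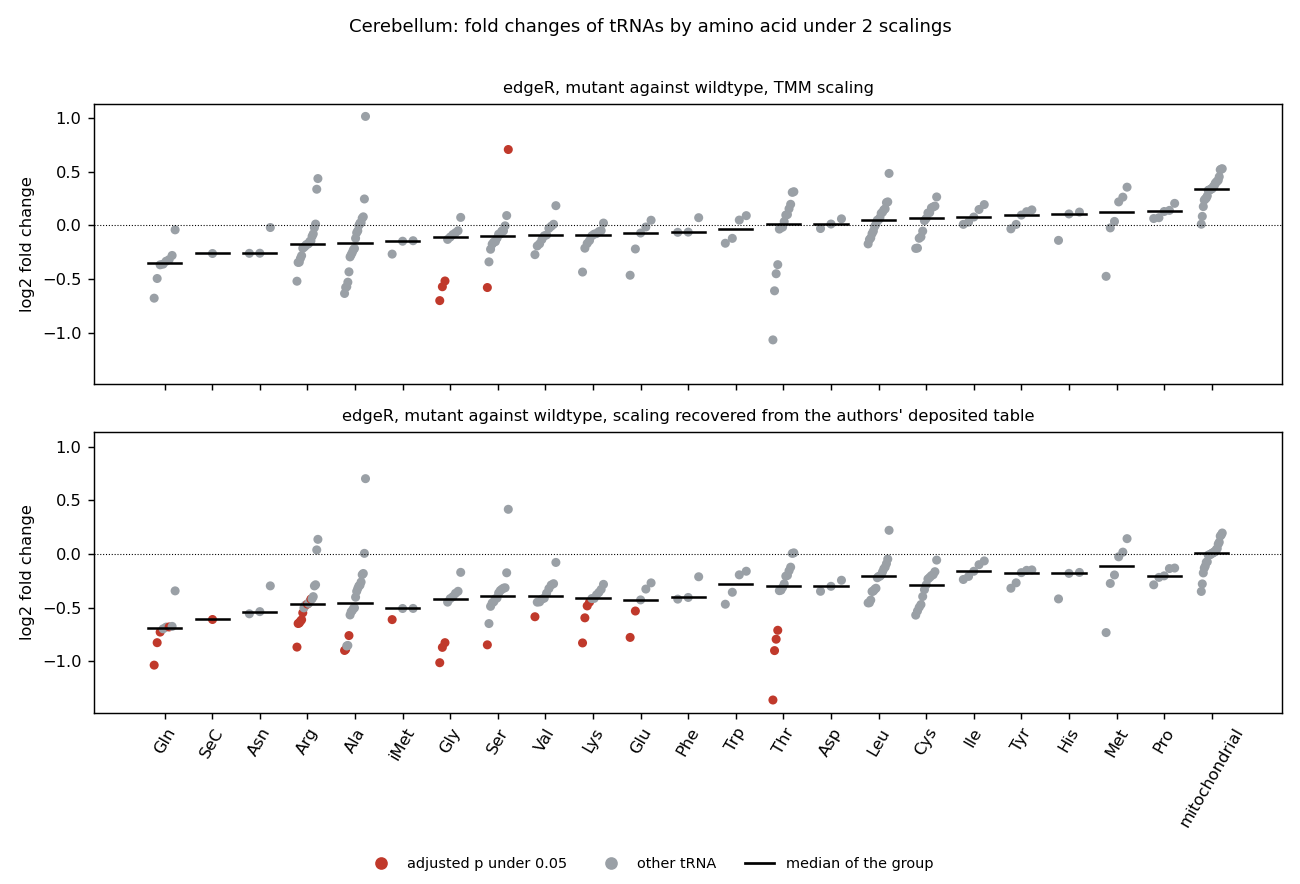
Each point is the log2 fold change of 1 tRNA, mutant over wildtype, by amino acid and for the mitochondrial set, with the group median as a line and adjusted p under 0.05 in red. On the TMM scale the nuclear median is −0.06 and the mitochondrial one 0.34, and on the authors' scale they are −0.35 and 0.00.

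The same genotypes were also measured in cerebrum, and the genotype effect was compared between the tissues in one model over all 21 libraries, without the replicate number as a term. In that model it differed for 10 of 204 tRNAs (4.9%), with the cerebellum value above the cerebrum value in each. The largest gaps were 1.28 ± 0.32 for Met-CAT-4-1, 1.18 ± 0.28 for Leu-CAA-4-1 and 1.01 ± 0.23 for Val-CAC-1-1 on the log2 scale (edgeR adjusted p = 0.0133, 0.00992 and 0.00992). Leu-CAA-4-1 had 0.05 in cerebellum and −1.13 in cerebrum, and Val-CAC-1-1 had −0.01 and −1.02. Met-CAT-4-1 had −0.47 in cerebellum, which did not pass, and −1.75 in cerebrum. The others were Ala-AGC-1-1 (0.97), Ser-GCT-1-1 (0.96), Thr-AGT-6-1 (0.91), Ala-AGC-5 (0.81), Thr-AGT-5-1 (0.74), Tyr-GTA-1 (0.74) and Val-AAC-2 (0.63), and within cerebellum none of the 10 passed. Without mutant 5 of the cerebellum the number that differed was 21. Count and direction depend on the model. With genotype and replicate number as a block 28 of 204 differed (13.7%), 17 with cerebellum above and 11 below. Mutant 5 of the cerebellum has no cerebrum library of its number, so it adds nothing to the blocked comparison. The blocked count therefore also reflects the loss of that library.

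Fitted within each tissue, Gly-GCC-1 had −0.52 in cerebellum and −0.72 in cerebrum and passed in both. Ser-CGA-3-1 had 0.71 and 0.42 and missed the threshold in cerebrum (edgeR adjusted p = 0.0612). Arg-TCT-4-1 had 0.44 and 0.37 and passed in neither (edgeR adjusted p = 0.0514 and 0.0641). The gap between the tissues did not pass for any of them. Gly-CCC-2 had −0.70 in cerebellum and 0.00 in cerebrum, a gap of −0.71 ± 0.31 that did not pass in the model without the replicate number (edgeR adjusted p = 0.239). For Phe-GAA-MT the values were 0.52 and −0.02, with a gap of 0.52 ± 0.20 (edgeR adjusted p = 0.154). Every other mitochondrial tRNA had a log2 fold change above 0 in cerebrum as well as in cerebellum. Val-TAC-MT (0.59), Ser2-GCT-MT (0.51) and Lys-TTT-MT (0.47) were among those that passed in cerebrum (edgeR adjusted p = 0.000613, 0.00101 and 0.0026). Their cerebellum values were 0.39, 0.25 and 0.42. In the model without the replicate number no mitochondrial tRNA differed between the tissues.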

How the data were processed

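The authors deposited raw counts per tRNA for each library and DESeq2 result tables, which hold a mean normalised signal, log2 fold changes with a score (the test statistic), and p-values. The submitters' processing notes name Bowtie2, cutadapt, featureCounts, DESeq2 and mm10. Versions, settings and the handling of reads that match several tRNAs were not found in them, so counts of near-identical isodecoders are uncertain. Counts were tested with edgeR 4.0.16 (R 4.3.3) in the quasi-likelihood model, with TMM scaling and the filterByExpr minimum count of 10; 202 of 208 tRNAs entered and Benjamini-Hochberg adjustment ran over all of them. The 1 spike-in entry stayed out of library sizes. DESeq2 1.42.0 and limma 3.58.1 were alternatives. The depth classes were split at 3000000 counts. Sequences were taken from the GENCODE M21 transcript sequences, and mm10 coordinates and strands from the GENCODE M21 annotation. No 2 libraries of a group agreed within sampling noise (lowest chi-square 44.3 per degree of freedom). The tests were checked on simulated counts. tRNAs named are those that pass, then the lowest p up to 25, the 10 most abundant, and initiator, selenocysteine and Arg-TCT tRNAs; others are said to be chosen later. The members and lists were chosen with earlier results of these data known.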

Additional observations from a re-analysis of the deposited data

Results flagged for a closer look

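Each group checked was the 5 mutant or the 6 wildtype cerebellum libraries for 1 value. Among 128 such groups, 14 held a library far from the rest, or 10.9%. The check flags about 1 in 20 independent groups by chance. These groups are not independent, since the values overlap, and some, such as Ile-AAT-1 and Lys-TTT-2, were picked after they were seen. Neither the 10.9% nor its spread over libraries can therefore be set against chance. 8 of the 14 were mutant 5. Its levels were 9949 CPM for Ile-AAT-1 (other mutants 22996 to 24939), 3595 for Lys-TTT-2 (1520 to 1790), 21877 for iMet-CAT-1 (11337 to 13377) and 2140.0 for SeC-TCA-1-1 (1244 to 1417). Its amino acid shares were 2.004% for isoleucine, 2.60% for initiator methionine, 0.250% for selenocysteine and 0.930% for tryptophan. Mutant 3 was the lowest mutant for the isodecoder share of Thr-TGT-2-1, at 1.34% against 1.90% to 2.09%.

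Of the wildtype libraries, wildtype 5 stood apart in depth, with 5323340 counts against 1612754 to 2272675, and in Ile-GAT-MT, at 3529 CPM against 2520 to 2771. Wildtype 3 was the highest for Arg-ACG-2-1, at 3214 CPM against 2408 to 2682, and for Arg-TCT-1-1, at 5878 against 3742 to 4157. Wildtype 4 was the lowest for the tyrosine share, at 1.74% against 1.88% to 1.96%.

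By an interaction test the log2 fold change was less negative in cerebellum than in cerebrum, or above 0 there, for the tRNAs listed next. They were Met-CAT-4-1 (gap 1.28), Leu-CAA-4-1 (1.18), Val-CAC-1-1 (1.01), Ala-AGC-1-1 (0.97), Ser-GCT-1-1 (0.96), Thr-AGT-6-1 (0.91), Ala-AGC-5 (0.81), Thr-AGT-5-1 (0.74), Tyr-GTA-1 (0.74) and Val-AAC-2 (0.63), all on the log2 scale. All of them fell and passed in cerebrum, and none passed in cerebellum. Thr-AGT-6-1, Thr-AGT-5-1, Val-CAC-1-1, Leu-CAA-4-1, Tyr-GTA-1 and Met-CAT-4-1 passed in all 26 other settings, while Ala-AGC-5 passed in 9 and Val-AAC-2 in 12. Depth class as a covariate, the spike-in count and the authors' size factors were not among these settings, so the dependence on depth was not tested here.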

How the results depend on the processing

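The 5 tRNA calls became 9 with library totals, 53 with the mitochondrial total, 30 with a median of ratios over mitochondrial tRNAs, 83 with the spike-in count and 32 with the authors' size factors; 23 with DESeq2, 9 with limma-voom, 9 with no filter and 8 with a mean count of at least 50; 3 with sex and 0 with depth class as a covariate. Alternatives chosen after seeing the data gave 29 over nuclear tRNAs without mutant 5, 24 without mutants 1 and 5, and 20 without mutant 5 with depth class as a covariate. Leaving out each library in turn gave 2 (without wildtype 1 or 6) to 33 (without mutant 5). The 0 anticodon calls became 11 with the mitochondrial total, 10 with the mitochondrial median, 16 with the spike-in count, 10 with the authors' factors, 11 with DESeq2 and 1 with depth class, and 0 to 5 without 1 library. The 15 share calls became 5 with sex and 1 with depth class, and 3 to 40 without 1 library. The 10 differences between tissues became 7 to 21 without 1 library.

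The mitochondrial share difference was 2.74 to 4.54 points without 1 library and 5.10 within depth classes (exact permutation p = 0.0667). Nuclear counts per spike-in count differed by −0.70 to −0.45 on the log2 scale without 1 library, with 3 of 11 exact permutation p-values at or over 0.05, and by −0.58 within depth classes. Same-numbered libraries were not treated as pairs. Their correlations within cerebellum ran from 0.02 to 0.22. Between the tissues they ran from −0.17 to 0.45; 5 of 10 cerebellum libraries correlated best with their own number in cerebrum and the labelled sex matched for all 10, but the labels do not say that a number marks an animal, so that pairing was not settled. Within cerebellum, with mutant and wildtype of one number as a block and wildtype 6 left out, 5 tRNAs, 6 shares and 0 anticodons passed. Those 5 tRNAs are not the 5 of the main test, since Gly-CCC-3-1 lost its call. Over the same cerebellum pairs the mitochondrial share differed by 3.55 points and nuclear counts per spike-in count by −0.57. Both had an exact sign-flip p of 0.0625, the smallest possible. Between the tissues the block was genotype and number, and mutant 5, without a cerebrum partner, added nothing. There 28 of 204 tissue differences (13.7%) passed, 17 with cerebellum above and 11 below, with the 10 unblocked ones among them. Gly-CCC-2 then differed by −0.78 (edgeR adjusted p = 0.0498).

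Among the named results directions turned with the reference or with 1 library left out. With the mitochondrial total the log2 fold change of Thr-AGT-4-1 was −0.0429, Arg-TCG-MT −0.0254, Thr-CGT-3-1 −0.0330, Arg-CCG-2-1 −0.000759, Ile-GAT-MT −0.0309 (−0.0310 as an anticodon) and Ile-AAT-1 −0.118; Ile-AAT-1 was at −0.0564 with the mitochondrial median and −0.0657 with the authors' factors. With the spike-in count Phe-GAA-MT was at −0.0294, Arg-TCT-4-1 −0.0937, Tyr-GTA-MT −0.0255, Glu-TTC-MT −0.157, Trp-TCA-MT −0.0253, Thr-AGT-4-1 −0.256, Arg-TCG-MT −0.184, Ser1-TGA-MT −0.103, Thr-CGT-3-1 −0.258, Arg-CCG-2-1 −0.218, Ile-GAT-MT −0.190 and Ile-AAT-1 −0.395, and the anticodons of the mitochondrial ones matched to 3 digits unless given. The amino acid share Lys, mutant minus wildtype and −0.379 points with all libraries, ran from −1.66 (without mutant 5) to 0.474 (without mutant 3) and was 0.0237 without mutant 2; the amino acid share Met, 0.224, ran from −0.0135 (without mutant 3) to 0.547 (without mutant 5). The mitochondrial total is made of the mitochondrial tRNAs, so its values for Arg-TCG-MT and Ile-GAT-MT are relative to their own set. The cause of these changes was not tested.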
